A study of Homo sapiens with 6 samples.

Results

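Translation factors are the proteins that bring ribosome, initiator tRNA and mRNA together and then drive the ribosome along the message. The rows examined here were those whose gene symbol names an initiation factor (EIF1 to EIF6 with their subunits, kinases and binding proteins) or an elongation factor (EEF1 and EEF2 with EEF2K), leaving out EIF2AK2 and symbols of processed pseudogenes. This rule gave 63 genes of the 18234 in the table. Of these, 59 passed the low-value filter (3 or more libraries with a value of 1 or above), as did 8506 genes in all. The other 4, EIF1AY, EIF3CL, EIF4E1B and EIF4EBP3, had fewer than 3 libraries at that level and were not tested. The rule used symbols and no measured value.

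The study asked which RNAs are held by miR-146a, using miR-CLIP. In this method a miRNA mimic carrying psoralen, which crosslinks paired strands, and biotin, which is captured on streptavidin, is put into cells, and the RNA bound to it is recovered through AGO2, the protein that carries miRNAs, and then through the biotin. The 3 miR-CLIP libraries and the 3 Input libraries, each set lettered A to C, all came, per the labels, from IMR90, a normal human lung fibroblast line, infected with a retrovirus for RASV12, an oncogenic form of RAS, and transfected with the modified miR-146a mimic. The labels list an AGO2 antibody for the miR-CLIP libraries alone and describe the extraction once for all 6, so the labels leave unsaid how Input RNA was taken. The cells had puromycin at 1.5 ug/ml for 3 days, were seeded 10 days after infection, transfected 24 hours later and harvested 24 hours after that. No label names the promoter that drives RASV12 or states that the libraries are from different cultures. The p-values therefore reflect library-to-library spread, possibly technical. Empty-vector cells and the unmodified mimic, which the labels' protocols also name, were not analysed here.

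In initiation, EIF2 carries the initiator tRNA to the small ribosomal subunit, the many-subunit EIF3 holds that subunit ready, and the EIF4 factors bind the cap of the mRNA and unwind its leader; EIF1, EIF1A and EIF5 then govern the choice of start codon and EIF5B joins the large subunit. The EEF1 factors bring charged tRNAs to the elongating ribosome, EEF2 moves it by one codon, and EIF5A helps it past difficult peptide bonds. In the silencing of mRNAs by miRNAs, the cap-binding and EIF4A steps of initiation are the ones most often named as the point of translational repression. Many mRNAs of elongation factors and of EIF3 subunits begin with a terminal oligopyrimidine (TOP) start, a C followed by further pyrimidines, through which growth signals set their translation.

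A miRNA finds most of its targets by its seed, so the mature miR-146a-5p of RefSeq (GRCh38.p14, chr5:160485372-160485393, plus strand) is printed with the seed, bases 2 to 8, in capitals, above the 3′ UTR sites of the translation factors that match it. The sites were read 5′ to 3′ on the sense strand of GRCh38, with the matched letters in capitals. They are shown because these mRNAs are the candidates for pairing by seed.
hsa-miR-146a-5p: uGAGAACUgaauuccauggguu
EIF4EBP2 (chr10:70424788-70424817, plus strand): gtttattgagttcagcAGTTCTCAtattct
EIF4EBP2 (chr10:70425092-70425121, plus strand): ggagaaaccacttccaAGTTCTCtctttgt
EIF4EBP2 (chr10:70425495-70425524, plus strand): gattgctatcaaaaacAGTTCTCcaagatg
EIF4E3 (chr3:71679042-71679071, minus strand): attaaattctccccaaAGTTCTCAgacttt
EIF4E3 (chr3:71675999-71676028, minus strand): tctaagcatagaggttAGTTCTCcccaaca
EIF4G2 (chr11:10797547-10797576, minus strand): caataattacatcataAGTTCTCAagcaga
EIF3J (chr15:44562134-44562163, plus strand): cagctcttgggagtacAGTTCTCtacgttc

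The site searched was AGTTCTC, called 7mer-m8, in the longest annotated 3′ UTR. The 8mer site AGTTCTCA contains it, and the 6mer site GTTCTC lies inside both. A 7mer-m8 site was found in 5 of the 59 tested translation factors (8.47%) and in 771 of 6297 tested coding genes with a 3′ UTR (12.2%). For the 8mer the shares were 3 of 59 (5.08%) and 290 of 6297 (4.61%), and for the 6mer 18 of 59 (30.5%) and 2081 of 6297 (33.0%). The median 3′ UTR was 943 bases in the translation factors and 1305 in all tested genes. The fifth factor with a site was EIF5AL1, a near copy of EIF5A. When any annotated 3′ UTR was searched, EIF4E2 also held a site, which made 6 of 59 (10.2%), against 13.5% of the 6297 genes.

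The starts of several translation factor genes are shown so that starts with and without a pyrimidine run can be compared. Each line holds 15 bases before and 15 bases from the transcript start in RefSeq (GRCh38.p14), with the pyrimidine run that begins at the start in capitals. The last 3 lines are factors without such a run.
EEF1A1 (chr6:73521018-73521047, minus strand): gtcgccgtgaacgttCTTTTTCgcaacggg
EEF2 (chr19:3985449-3985478, minus strand): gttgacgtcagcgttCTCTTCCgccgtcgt
EIF2A (chr3:150546772-150546801, plus strand): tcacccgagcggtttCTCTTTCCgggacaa
EIF3F (chr11:7987322-7987351, plus strand): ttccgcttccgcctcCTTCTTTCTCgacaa
EIF3K (chr19:38619173-38619202, plus strand): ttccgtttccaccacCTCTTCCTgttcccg
EIF3M (chr11:32583816-32583845, plus strand): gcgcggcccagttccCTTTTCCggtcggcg
EIF3B (chr7:2354812-2354841, plus strand): ccccgtcgcacgcacatggctgggctgtag
EIF4G1 (chr3:184314591-184314620, plus strand): tctgtgcggggagccggaaatggttgtgga
EIF4E2 (chr2:232550674-232550703, plus strand): ggtggagcggaagtcactccctgaggcagt

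A start was called TOP where its first base was C and the next 4 were each C or T, on the gene's own strand. Of the translation factors, 50 had a promoter in the RefSeq table, and 11 of these (22.0%) had a TOP start, against 4.04% of all 27305 promoters. The others with a TOP start were EIF2D, EIF2S3, EIF3D, EIF4A2 and EIF4B. The call depends on the annotated start: EEF1B2, known as a TOP mRNA, was not called TOP, and EEF1D, EIF3E and EIF3H, also known as such, were not among the 50.

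The rows of the table held 6847837 to 9378463 reads per miR-CLIP library and 9295325 to 12771968 per Input library, and the 63 genes held 150002 to 250038 and 251038 to 323668 of them. Values are normalised read counts, each library's reads over its own size factor, and values of a group are given in the order A, B, C. Over the genes tested, the log2 values of miR-CLIP library B had a correlation of 0.973 to 0.982 with the Input libraries, 0.929 with miR-CLIP A and 0.911 with miR-CLIP C. Library A had 0.942 with C and 0.940 to 0.952 with Input, and library C had 0.925 to 0.930 with Input, so A was also about as near to Input as to C. Results are therefore given with all 6 libraries and without miR-CLIP B, and since B was singled out by its measured values, the test without it is not independent of them. Of 18 listed fibroblast markers, 11 had values. These summed to 237514 to 304448 in miR-CLIP and 228610 to 321056 in Input, led by FN1. Blood cell markers, of which 5 of 6 had values, summed to 10.3, 26.8 and 41.3 in miR-CLIP A to C. Their sums in Input A, B and C were 25.1, 9.1 and 8.7. Endothelial markers, of which 4 of 6 had values, summed to at most 246 in any library. Epithelial markers summed to 536, 2254 and 1045 in miR-CLIP A to C and to 1156, 1362 and 1016 in Input A, B and C, nearly all of it KRT18, with CDH1 at 0 in each miR-CLIP library; their part in the results was not tested. In bulk libraries such as these, fewer cells of a type and less RNA per cell cannot be told apart.

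With all 6 libraries, no translation factor passed the test. limma called 0 of 59 at an adjusted p under 0.05 (background 0% of 8506 genes), with a smallest adjusted p of 0.611 among them. At an unadjusted p under 0.05, 2 were higher in miR-CLIP (background 2.40%) and 5 lower (background 4.04%). edgeR's quasi-likelihood test on the recovered reads also called 0 of the 59, with 4 higher (background 4.21%) and 5 lower (background 2.37%) at an unadjusted p under 0.05. DESeq2 called 0 of the 59 (background 0.0235%), with 4 higher and 5 lower at that level (15.3%, background 7.94%). The 3 miR-CLIP values lay wholly above the 3 Input values for 5 factors (background 5.64%) and wholly below them for 9 (background 7.34%).

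The median log2 fold change, miR-CLIP over Input on log2(value + 1), was -0.22 over the 59 factors and -0.13 over all genes tested. By library, the median difference from the Input mean was -0.53, 0.24 and -0.44 in miR-CLIP A to C for the factors, against -0.10, 0.06 and -0.28 for all genes. Library B thus lay on the other side of the Input mean from libraries A and C. This held gene by gene for many members: 26 of 59 (44.1%) were below the Input mean in A and C and above it in B, against 26.5% of all genes, while 5 showed the reverse, against 18.3%.

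**Figure D1:**
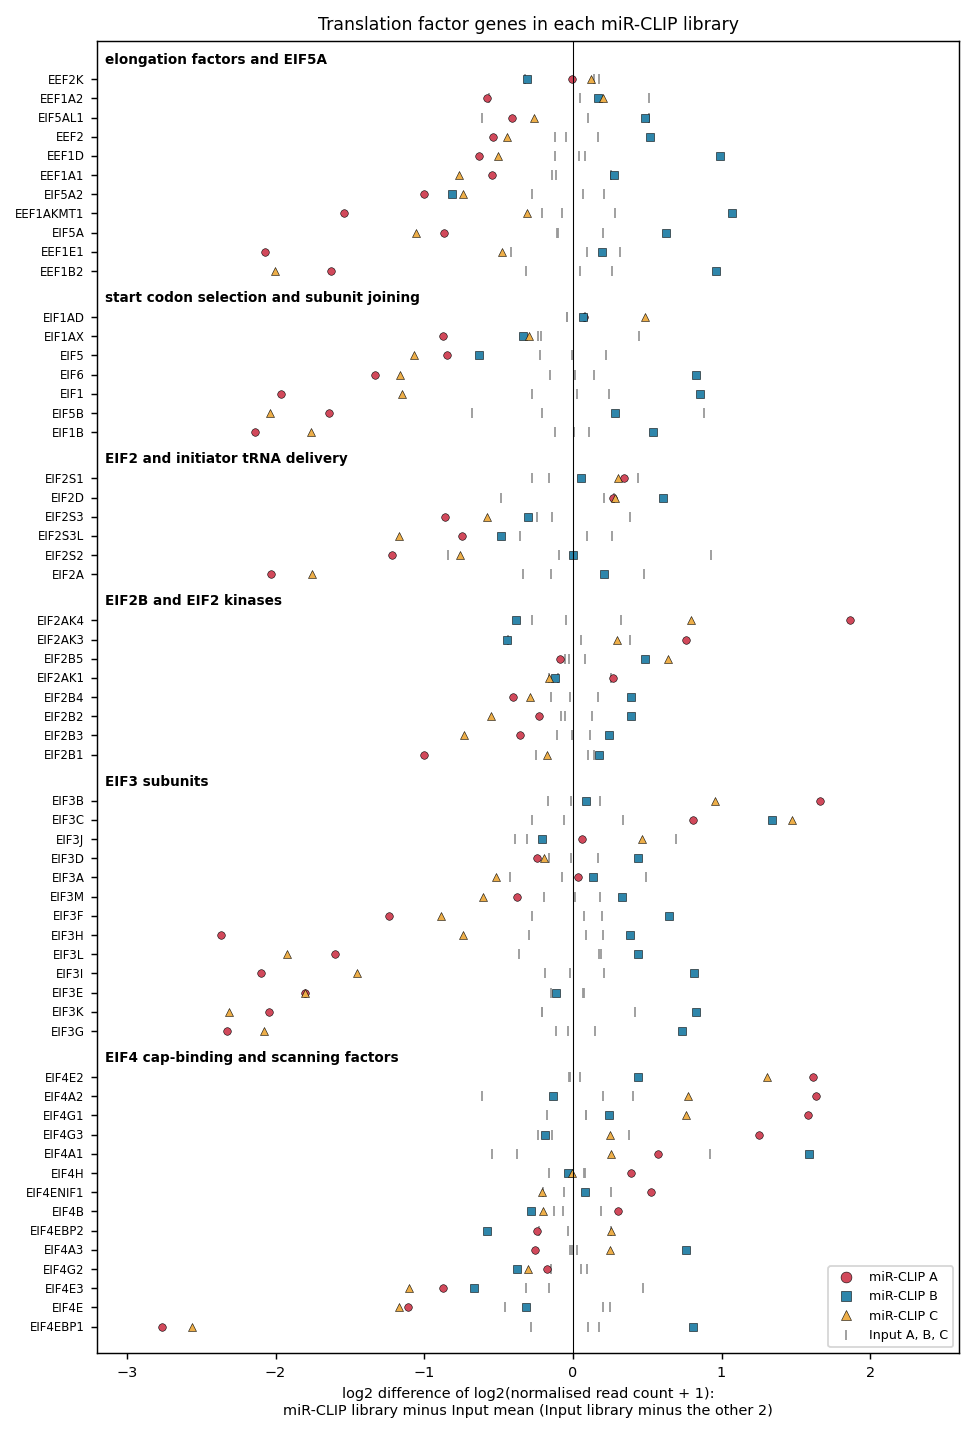
Difference of each miR-CLIP library from the Input mean on log2(normalised read count + 1) for the 59 tested translation factors, grouped by role and ordered within a role by the fold change without library B. Coloured points are miR-CLIP libraries, and grey ticks are Input libraries, each against the mean of the other 2. Red circles (A) and yellow triangles (C) lie left of 0 for most elongation factors and EIF3 subunits, where the blue squares (B) lie at or right of 0.

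Without miR-CLIP B, limma called 26 of the 59 factors (44.1%), against 28.7% of all genes. Of these, 21 were lower in miR-CLIP than in Input (35.6% of the factors, background 16.1%) and 5 were higher (8.47%, background 12.6%). The 5 were EIF4E2, EIF2AK4, EIF3B, EIF4A2 and EIF4G1. edgeR's quasi-likelihood test on the recovered reads called the 26 and 4 more (50.8% in all, background 27.6%), so that 25 were lower (background 15.8%) and 5 higher (background 11.7%). The 4 were EIF2B3, EIF2S2, EIF3M and EIF4E3, all lower. From here on, calls without miR-CLIP B are those of limma unless edgeR or the removal of the length trend is named. In library B, 8 of the 26 differed from the Input mean in the same sense as A and C together (30.8%), and the share over all genes called was 31.4%. The 8 were EIF4E2, EIF4G1 and EIF3B, which were higher, and EIF2S3, EIF3E, EIF4E, EIF5 and EIF5A2, which were lower.

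**Figure D2:**
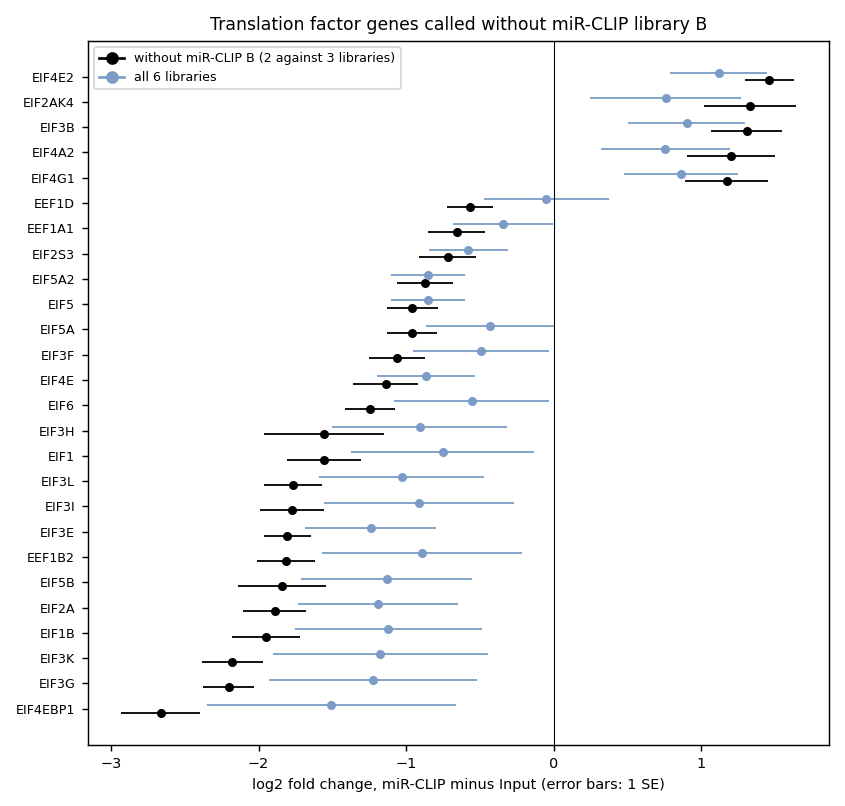
Log2 fold change of miR-CLIP over Input, with 1 SE, for the 26 translation factors called without miR-CLIP library B; black points are the fit without B and blue points the fit with all 6 libraries. The blue points lie nearer 0 with longer bars in most rows; EIF5 and EIF5A2 move least.

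The EIF3 complex split by subunit. Of its 13 tested genes, 7 were lower and 1 higher without miR-CLIP B, where 16.1% of all genes were lower and 12.6% higher. For 8 of the 13, A and C were below the Input mean and B above it, against 26.5% of all genes. EIF3G, EIF3K, EIF3I, EIF3L, EIF3E, EIF3H and EIF3F were the 7 that were lower, and EIF3B was the one that was higher. The largest subunit EIF3A, the cap-contacting EIF3D, EIF3C and the loosely bound EIF3J passed in neither direction by limma or edgeR.

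EIF3G, a subunit that binds RNA and takes part in scanning, had 338, 2821 and 401 in miR-CLIP A to C, against 1672, 1819 and 1612 in Input A, B and C. Its values in A and C lay below every Input value and its value in B above every one. The log2 fold change was -1.23 ± 0.71 (SE) with all libraries and -2.20 ± 0.17 without B (limma adjusted p = 0.000564). EIF3K, which with EIF3L forms an outer pair of the complex, had 321, 2360 and 266 in miR-CLIP A to C, against 1206, 1608 and 1204 in Input, and changed by -2.18 ± 0.21 without B. Its partner EIF3L had 626, 2582 and 500 in miR-CLIP A to C, against 2064, 2078 and 1607 in Input, and changed by -1.76 ± 0.20 without B. For both, B was the highest of the 6 libraries and A and C the lowest. EIF3I, a scaffold that sits beside EIF3B and EIF3G, had 753, 5659 and 1178 in miR-CLIP A to C, against 3198, 3547 and 2953 in Input, and changed by -1.77 ± 0.22 without B. EIF3E, a subunit of the core octamer, had 687, 2220 and 688 in miR-CLIP A to C, against 2481, 2247 and 2486 in Input. In its case all 3 miR-CLIP values were below the Input values, although B was lower by a margin smaller than the range of the Input libraries. Its log2 fold change was -1.24 ± 0.45 with all libraries and -1.80 ± 0.16 without B (limma adjusted p = 0.000711).

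EIF3B, the scaffold on which EIF3G and EIF3I are mounted, went the other way. It had 21152, 7097 and 12942 in miR-CLIP A to C, against 6171, 7266 and 6629 in Input. A and C were the highest libraries and B lay within the Input range. The log2 fold change was 0.90 ± 0.40 with all libraries and 1.31 ± 0.24 without B (limma adjusted p = 0.00665). EIF3A, the largest subunit, had 8868, 9515 and 6044 in miR-CLIP A to C, against 7123, 8355 and 10872 in Input, with groups that overlapped and a log2 fold change of -0.11 ± 0.30. EIF3J, which carries a 7mer-m8 site, had 1902, 1577 and 2508 in miR-CLIP A to C, against 1579, 1521 and 2506 in Input, and a log2 fold change of 0.11 ± 0.31. EIF3C was counted at only 21.7, 31.8 and 35.0 in miR-CLIP A to C, against 11.6, 14.1 and 10.4 in Input. These groups did not overlap (1.21 ± 0.52), but EIF3C has a near-identical copy, EIF3CL, with at most 1 read per library, so how reads of the pair were assigned is uncertain. EIF3D did not pass without B (-0.22 ± 0.16). EIF3M did not pass there by limma (-0.49 ± 0.17), but was called lower by edgeR (adjusted p = 0.0392) and by limma with the length trend removed (adjusted p = 0.0227).

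**Figure D3:**
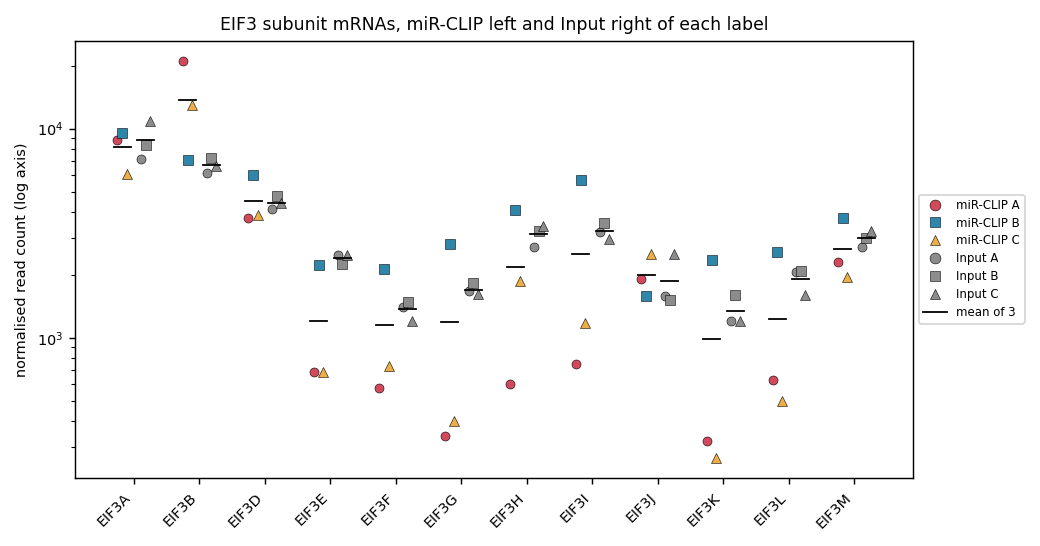
Normalised read counts (log axis) of 12 EIF3 subunit genes in every library, with miR-CLIP left and Input right of each label; black bars are means of 3 libraries. EIF3B has its 2 highest values in miR-CLIP A and C, while for EIF3F, EIF3G, EIF3H, EIF3I, EIF3K and EIF3L the red circle and yellow triangle lie below all Input points and the blue square above them.

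The EIF4 factors divided between paralogs. Their median log2 fold change was 0.13 over 14 genes (0.11 without miR-CLIP B), with medians of 0.35, -0.09 and 0.12 in miR-CLIP A to C. Without B, 3 were higher (background 12.6%) and 2 lower (background 16.1%). EIF4E2 and EIF4E, which both bind the mRNA cap, moved in opposite directions. EIF4E2 (also called 4EHP) binds caps without recruiting EIF4G and represses translation, in part together with GIGYF proteins. It had 3976, 1761 and 3221 in miR-CLIP A to C, against 1327, 1288 and 1283 in Input, so that each miR-CLIP value exceeded each Input value. Its log2 fold change was 1.12 ± 0.33 with all libraries, the largest estimate relative to its SE among the factors, and 1.46 ± 0.17 without B (limma adjusted p = 0.00136). EIF4E, the cap-binding subunit of the initiation complex, had 239, 414 and 229 in miR-CLIP A to C, against 567, 417 and 579 in Input. All 3 miR-CLIP values were below the Input values, B only narrowly. Its log2 fold change was -0.86 ± 0.33 with all libraries and -1.14 ± 0.22 without B (limma adjusted p = 0.00859).

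EIF4E3, another cap-binding paralog, carries 2 of the 7mer-m8 sites printed above, one of them an 8mer. It had 66.1, 76.5 and 56.3 in miR-CLIP A to C, against 105, 113 and 152 in Input, again without overlap. The log2 fold change was -0.88 ± 0.37, and -0.99 ± 0.33 without B (limma adjusted p = 0.0567); it passed without B by edgeR, and by limma once the transcript length trend was removed. A coding gene overlaps EIF4E3 on the same strand, so some reads may belong to either.

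The 4E-binding proteins, which keep EIF4E from EIF4G until mTOR phosphorylates them, also parted. EIF4EBP1 had 44.4, 538 and 51.3 in miR-CLIP A to C, against 270, 333 and 323 in Input. A and C were far below the Input libraries and B above them. The fold change without B, -2.66 ± 0.27 (limma adjusted p = 0.000981), was the lowest of the 59 factors, and with all libraries it was -1.51 ± 0.84. EIF4EBP2, the factor with 3 seed sites, had 5592, 4430 and 7908 in miR-CLIP A to C, against 7453, 6514 and 5960 in Input. Its groups overlapped, and the log2 fold change was -0.19 ± 0.30 with all libraries and 0.01 ± 0.21 without B.

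EIF4G1, the scaffold that ties the cap-binding protein to EIF3, had 57780, 22861 and 32714 in miR-CLIP A to C, against 17786, 20111 and 20064 in Input, all 3 above the Input values. Its log2 fold change was 0.86 ± 0.39, and 1.17 ± 0.28 without B (limma adjusted p = 0.0179). EIF4G2 (DAP5), a relative that lacks the EIF4E-binding stretch and serves cap-independent initiation, carries an 8mer site. It had 16053, 13990 and 14671 in miR-CLIP A to C, against 16908, 18602 and 18917 in Input. The groups did not overlap, in the direction opposite to EIF4G1, by -0.28 ± 0.27 on the log2 scale, and it did not pass without B (-0.24 ± 0.19). EIF4G3 had a log2 fold change of 0.75 ± 0.30 without B and did not pass (limma adjusted p = 0.0925). Of the EIF4A helicases, EIF4A2 had 5323, 1558 and 2924 in miR-CLIP A to C, against 2067, 1292 and 1881 in Input. It was higher without B (1.20 ± 0.30, limma adjusted p = 0.0205), with B inside the Input range. EIF4A3, a part of the exon junction complex, did not pass, at -0.00 ± 0.19 without B. EIF4A1 had between 21.6 and 86.4 in any library, shares a strand with an overlapping coding gene and has 10 pseudogene rows, so its level is uncertain. EIF4B, EIF4H and the EIF4E-binding shuttle protein EIF4ENIF1 had log2 fold changes of -0.06 ± 0.27, 0.12 ± 0.25 and 0.14 ± 0.29.

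**Figure D4:**
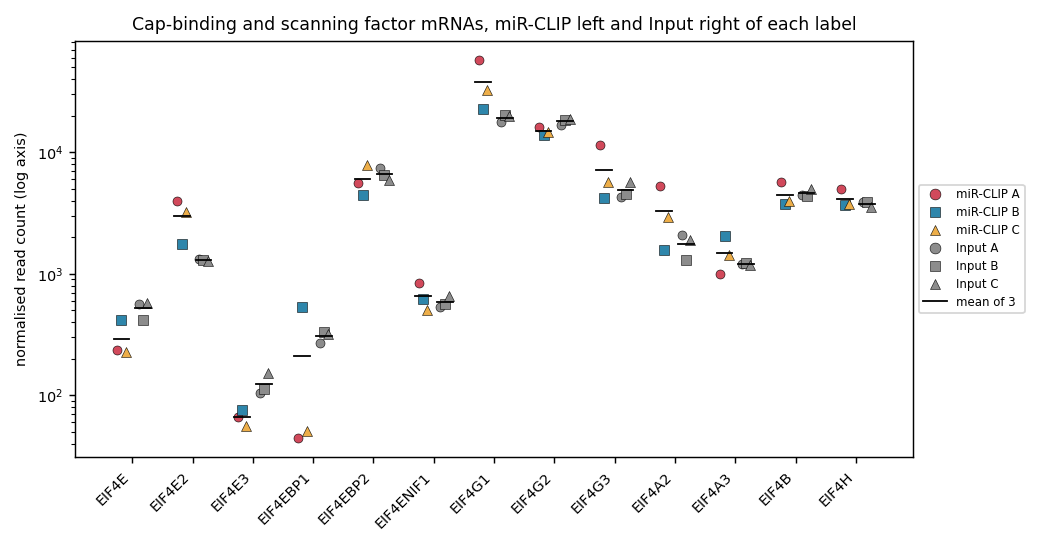
Normalised read counts (log axis) of 13 cap-binding and scanning factor genes in every library, with miR-CLIP left and Input right of each label; black bars are means of 3 libraries. EIF4E2 and EIF4G1 have every miR-CLIP point above every Input point, EIF4E and EIF4E3 every one below, and EIF4EBP1 has A and C below and B above Input.

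Factors that select the start codon and join the subunits had a median log2 fold change of -0.75 over 7 genes. Without miR-CLIP B, 5 of them were lower (background 16.1%) and 0 higher (background 12.6%). EIF5, the GTPase activator of EIF2, was lower in each of the 3 libraries: it had 2524, 2926 and 2163 in miR-CLIP A to C, against 4096, 4530 and 5033 in Input. Its log2 fold change was -0.85 ± 0.25 with all libraries and -0.96 ± 0.17 without B (limma adjusted p = 0.00654), so that here leaving out B changed little. EIF1, which guards against wrong start codons, had 1845, 12987 and 3231 in miR-CLIP A to C, against 6326, 8045 and 7283 in Input. EIF1B, its close paralog, had 91.9, 595 and 120 in miR-CLIP A to C, against 430, 387 and 410 in Input. In both genes A and C were below every Input value and B above every one, and without B they changed by -1.56 ± 0.25 and -1.95 ± 0.23. EIF5B and EIF6, which joins and which holds off the large subunit, changed by -1.84 ± 0.30 and -1.25 ± 0.17 without B; a coding gene overlaps EIF6 on its strand. EIF1AX, the EIF1A that keeps the scanning ribosome open, had 493, 716 and 734 in miR-CLIP A to C, against 809, 817 and 1109 in Input. The groups did not overlap, and the change was -0.50 ± 0.28 with all libraries and -0.58 ± 0.24 without B, which did not pass. EIF1AD, which shares the EIF1A fold, had 652, 649 and 869 in miR-CLIP A to C, against 644, 608 and 609 in Input, all higher but by 0.21 ± 0.26 on the log2 scale.

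Of the genes for EIF2 and initiator tRNA delivery, 2 of 6 were lower (background 16.1%) and 0 higher (background 12.6%) without miR-CLIP B. EIF2A, a separate factor that can bring initiator tRNA to special mRNAs, had 337, 1595 and 408 in miR-CLIP A to C, against 1180, 1286 and 1717 in Input. B lay within the Input range, and the log2 fold change was -1.19 ± 0.54 with all libraries and -1.89 ± 0.22 without B (limma adjusted p = 0.00137). The 3 subunits of EIF2 proper differed. EIF2S3, the gamma subunit that binds GTP and tRNA, had 2356, 3459 and 2861 in miR-CLIP A to C, against 3995, 3817 and 5098 in Input, without overlap (-0.58 ± 0.27 with all libraries, -0.72 ± 0.19 without B, limma adjusted p = 0.0281). Its near copy EIF2S3L had 23.7, 28.8 and 17.5 in miR-CLIP A to C, against 34.3, 42.4 and 46.0 in Input; reads of the pair may have been split between them. EIF2S2, the beta subunit, did not pass by limma without B (-0.99 ± 0.33, adjusted p = 0.055) but was called by edgeR (adjusted p = 0.0243), and EIF2S1, the alpha subunit that stress kinases phosphorylate, had a log2 fold change of 0.23 ± 0.26. EIF2D, which can place tRNA without GTP, had 414, 523 and 419 in miR-CLIP A to C, against 378, 390 and 274 in Input, without overlap (0.39 ± 0.29); it was called higher without B when the length trend was removed (limma adjusted p = 0.0402).

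EIF2B, which reloads EIF2 with GTP, and the EIF2 kinases gave 1 call by limma among 8 genes without miR-CLIP B (background 28.7%). That gene was higher, and edgeR added EIF2B3, which was lower. EIF2AK4 (GCN2), the kinase that senses lack of amino acids, had 23629, 4963 and 11226 in miR-CLIP A to C, against 6331, 5696 and 7531 in Input. A and C were the highest libraries and B the lowest, for a log2 fold change of 0.76 ± 0.51 with all libraries and 1.33 ± 0.31 without B (limma adjusted p = 0.0168). The kinases EIF2AK1 (HRI) and EIF2AK3 (PERK) had 0.05 ± 0.19 and 0.53 ± 0.23 without B, and the 5 EIF2B subunits had -0.59 to 0.28, none of which passed by limma. EIF2B3 was called lower without B by edgeR (adjusted p = 0.0403) and not by limma (-0.54 ± 0.19).

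The elongation factor and EIF5A group held 11 genes, placed there by symbol. Not all are elongation factors: EEF1AKMT1 methylates EEF1A, EEF2K is a kinase, and EEF1E1 was counted by its name. Without miR-CLIP B, 5 were lower (background 16.1%) and 0 higher (background 12.6%). With the length trend removed as well, 3 were lower (background 9.97%) and 0 higher (background 11.3%). With all libraries their median log2 fold change was -0.26 and all 11 estimates were negative, as were 4846 of the 8506 over all genes. EEF1D, EEF1A2, EEF2K and EIF5AL1 were at -0.07 to -0.05, and EEF1A2 and EEF1E1 had at most 59.4 and 69.2 normalised read counts in any library. The library medians of the 11 were -0.63, 0.48 and -0.48 in miR-CLIP A to C. Of the 11, 8 lay below the Input mean in A and C and above it in B, against 26.5% of all genes. EEF2, the translocase and the factor with the most reads per kilobase of transcript in Input (11904, against 4899 for EIF5A, the next), had 25959, 53821 and 27640 in miR-CLIP A to C, against 36803, 40613 and 35575 in Input. A and C were the lowest libraries and B the highest, and EEF2 did not pass even without B (-0.49 ± 0.22, limma adjusted p = 0.124). EEF1A1, which delivers charged tRNAs, had 9380, 16593 and 8023 in miR-CLIP A to C, against 12959, 15414 and 12801 in Input (-0.66 ± 0.19 without B, limma adjusted p = 0.0368). The table also held 28 EEF1A1 pseudogene rows, which summed to 513, 854 and 409 in miR-CLIP A to C and to 668, 802 and 676 in Input, the same order of libraries within the miR-CLIP group. EEF1B2, a subunit of the exchange factor for EEF1A, had 668, 4021 and 514 in miR-CLIP A to C, against 1786, 2111 and 2335 in Input. Its change without B was -1.82 ± 0.20 (limma adjusted p = 0.00121), against -0.57 ± 0.16 for its partner EEF1D.

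EIF5A and EIF5A2, the proteins known to carry the amino acid hypusine, were both lower without miR-CLIP B. EIF5A2 had 432, 492 and 520 in miR-CLIP A to C, against 893, 764 and 954 in Input, below them in each library (-0.85 ± 0.25 with all libraries, -0.87 ± 0.19 without B, limma adjusted p = 0.0131). EIF5A had 4050, 11420 and 3556 in miR-CLIP A to C, against 7055, 8121 and 7034 in Input, with B the highest library (-0.43 ± 0.44 with all libraries, -0.96 ± 0.17 without B). EIF5AL1 had 13.4 to 25.8 in miR-CLIP, against 13.5 to 23.3 in Input, so that the groups overlapped. EEF2K, the kinase that switches EEF2 off, had a log2 fold change of 0.06 ± 0.20 without B.

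Transcript length moved with the difference from Input, in opposite senses in the miR-CLIP libraries. Over the 59 factors, Spearman's rho between the longest annotated transcript and the difference from the Input mean was 0.383, -0.587 and 0.241 in miR-CLIP A to C, and over 8475 genes it was 0.361, -0.369 and 0.335; the points of a library share its depth. For the shortest 19 factors, of 1010 to 2142 nucleotides, the median differences were -1.33, 0.63 and -1.05 in miR-CLIP A to C. The 1309 coding genes in that range had -0.73, 0.42 and -0.78. Without B, 9 of these 19 factors were lower and 1 higher, against 439 lower and 44 higher of the 1309. A and C lay below the Input mean and B above it in 63.2% of the 19 and 52.9% of the 1309. For the longest 19 factors, of 4314 to 11523 nucleotides, the medians were -0.24, -0.19 and -0.52, against 0.47, -0.21 and 0.29 for the 2102 coding genes in that range. Factors with a long annotated transcript thus had negative medians in A and C where other such genes had positive ones. Of the 19, 6 were lower and 2 higher without B, against 148 lower and 624 higher of the 2102. Whether the longest annotated transcript was the form expressed was not tested. For EIF3F it had 7540 nucleotides, of which 5840 were 3′ UTR. EIF4E, EIF4E3, EIF5, EIF5A2, EIF5B, EIF3F and EEF1A1 are among the 19 and were below the Input mean in A and C. Of these, EIF4E3 was not called by limma without B.

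With the length trend removed in each library and miR-CLIP B left out, limma called 25 of the 59 factors (42.4%, background 21.3%), 19 lower (background 9.97%) and 6 higher (background 11.3%). Of the 26 called without that step, 22 were called again, and all 26 kept their direction; EIF6, EIF5A, EIF2S3 and EEF1D were no longer called. Over the factors the median was then -0.33, against 0.01 over all genes. This step also used the longest annotated transcript, which need not be the form expressed.

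**Figure D5:**
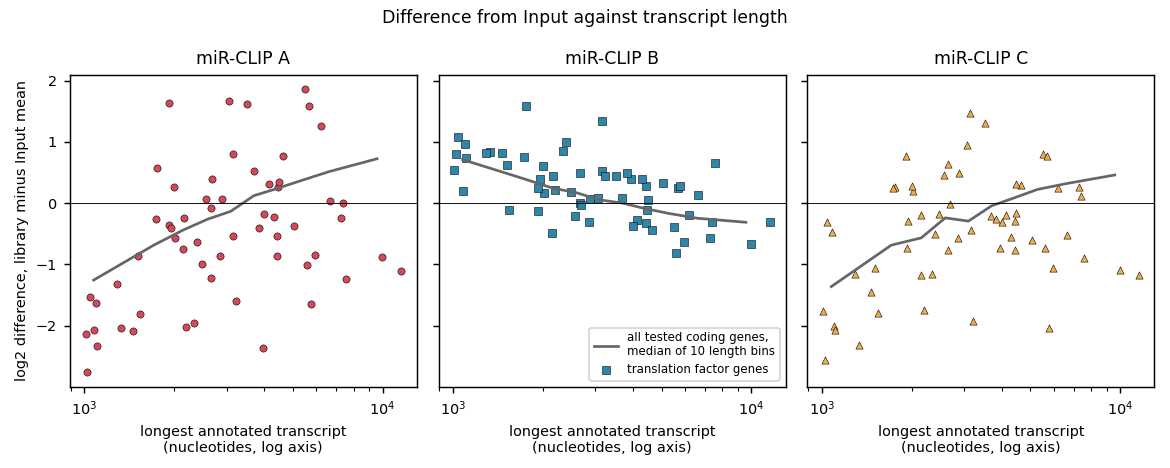
Difference of each miR-CLIP library from the Input mean, on log2(normalised read count + 1), against the longest annotated transcript (log axis) for the 59 tested translation factors (coloured points); the grey line joins medians of 10 length bins of all tested coding genes. The line ends higher than it begins in A and C and lower in B, and the points of EIF4E, EIF4E3, EIF5, EIF5A2, EIF5B and EIF3F lie far below its right end in A and C.

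Factors with a TOP start went both ways. Of the 11 factors with a TOP start, 9 had a negative log2 fold change. Without miR-CLIP B, 5 of the 11 were lower (background 16.1%) and 1, EIF4A2, was higher (background 12.6%). Of 36 tested factors with another start, 21 were negative, and 10 were lower and 4 higher without B. The medians without B were -0.49 and -0.29. Of 9 factors listed as TOP mRNAs from textbook knowledge, 8 had values. All 8 were negative with all libraries, EIF4B at -0.06 and, without B, at 0.05. Of the 8, 6 were lower without B (background 16.1%), or 5 with the length trend removed as well (background 9.97%). Their medians were -0.93, 0.45 and -0.76 in miR-CLIP A to C.

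Of the 5 tested factors with a 7mer-m8 site in the longest 3′ UTR, limma called 0 with all libraries (background 0%). Without miR-CLIP B it also called 0 of the 5 (background 28.7%), which are too few genes to set against that share. EIF4E2, whose site lies in another annotated 3′ UTR, is not among the 5. As given above, EIF4E2 was called higher without B by limma, and each of its miR-CLIP values exceeded each Input value. EIF4E3 was called lower without B by edgeR (adjusted p = 0.0460) and by limma with the length trend removed (adjusted p = 0.0155). EIF4EBP2, EIF4E3, EIF4G2, EIF3J and EIF5AL1 had log2 fold changes of -0.88 to 0.11 with all libraries. Over all tested genes with a 3′ UTR, those with the site had a median of 0.13 and those without it -0.10. These sets were not matched for transcript length. Tested coding genes of 4314 to 11523 nucleotides had a median of 0.14, and those of 1010 to 2142 nucleotides -0.39. The part of length in the difference by site was not tested. IRAK1, an established miR-146a target, had 3655, 1599 and 3486 in miR-CLIP A to C, against 1615, 1573 and 1071 in Input (0.97 ± 0.37). Its value in B lay within the Input range, and it did not pass with all libraries (limma adjusted p = 0.611). It was higher without B (1.35 ± 0.21, limma adjusted p = 0.00384).

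Other genes of the translation machinery were counted from listed groups, not all of whose genes had values. The lists held 20 initiation helpers and regulators, 11 modifying enzymes, 11 release, recycling and rescue factors and 9 mitochondrial factors. Of these, 12, 10, 6 and 4 had values, so the counts below cover only part of each list. Of 12 initiation helpers and regulators, 6 were higher (background 12.6%) and 0 lower (background 16.1%) without miR-CLIP B. Once the length trend was removed too, 1 was higher (background 11.3%). GIGYF1, a partner of EIF4E2, had 1701, 625 and 2072 in miR-CLIP A to C, against 525, 569 and 399 in Input, above them in each library (1.40 ± 0.45 with all libraries, 1.93 ± 0.21 without B). Its paralog GIGYF2 overlapped Input (0.17 ± 0.23). GCN1, which activates EIF2AK4, and LARP1, which binds TOP mRNAs, changed by 0.75 ± 0.22 and 0.85 ± 0.22 without B. Of 10 enzymes that modify EEF2 or EIF5A or place selenocysteine, 4 were lower (background 16.1%) and 0 higher (background 12.6%) without B. EEF2KMT, which methylates EEF2, changed by -2.29 ± 0.40, and DHPS, which starts hypusine synthesis on EIF5A, by -1.66 ± 0.24. The diphthamide genes DPH1 and DPH3 changed by -1.28 ± 0.29 and -0.81 ± 0.18. With the length trend removed as well, 3 of the 10 were lower (background 9.97%) and 1 higher (background 11.3%). Of 6 release, recycling and rescue factors, 1 was lower (background 16.1%) and 0 higher (background 12.6%) without B. This was DENR (-0.78 ± 0.21), a call lost once the length trend was removed. The other 5, ETF1, GSPT1, GSPT2, ABCE1 and HBS1L, did not pass. Of 4 mitochondrial translation factors, 1, GFM2, was higher without B (0.83 ± 0.25, background 12.6%) and 0 were lower (background 16.1%).

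The authors' deposited table, which gives a linear fold of miR-CLIP over Input with its p-values, had 7 of the 63 translation factors at an unadjusted p under 0.05 (background 2.82% of its 18221 genes with a p, low ones included). For these, the authors' deposited table gave EIF3C, of uncertain read assignment, a fold of 2.44 (p = 0.0468), EIF4E2 2.30 (p = 0.00210), EIF3B 2.05 (p = 0.0443), EIF4G1 1.96 (p = 0.0362), EIF5 0.557 (p = 0.00216), EIF5A2 0.553 (p = 0.00515) and EIF4E3 0.539 (p = 0.0198). The smallest adjusted p among the translation factors in the authors' deposited table was 1.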

How the data were processed

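The authors' deposited table holds a signal value for each gene in each library. All values were multiples of 1 step per library, to a tolerance of 1e-06, as when the authors divide read counts by a size factor, so reads were recovered from them. Per the file headers, there are also columns for a linear fold (a ratio), its p-value and the p-value after adjustment. Trimmomatic 0.35, STAR 2.5.1b and DESeq2 1.22.2 with GRCh38 are listed in the submitters' processing notes. The counter and its strand setting are not stated there, so reads of genes that overlap cannot be told apart. This holds also where a coding gene overlaps on the other strand, as for EIF4E2, EIF3B, EIF3G, EIF3I, EIF3L, EIF2A, EIF5B and others.

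Groups were compared on log2(value + 1) by limma-trend, two-sided, under R 4.3.3 with limma 3.58.1 and Benjamini-Hochberg adjustment over 8506 genes at a threshold of 0.05; the pseudocount understates changes of low genes. Alternatives were edgeR 4.0.16 and DESeq2 1.42.0 on the recovered reads, other filters, pseudocounts and scalings, each library left out, and the lowess trend on transcript length removed. Code was tested on simulated data. Lengths and 3′ UTRs came from GENCODE 29, which matched all 63 genes. Values in every library are given for 32 factors (EIF5AL1 by its range): those whose groups do not overlap with a mean of at least 10, the 10 with the smallest p, the 10 with the highest mean, the 10 with the smallest p without miR-CLIP B, and those with a site. EIF4A2, which meets none of these, was added after its values were seen. Other genes were named with their values from the same fits. Members and lists were chosen with earlier results of these data known.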

Additional observations from a re-analysis of the deposited data

How the results depend on the processing

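Leaving out 1 library in turn called 0 to 26 of the translation factors and 0 to 2442 of all genes; the higher figures are those without miR-CLIP B. Without B, 25 factors and 1805 genes were called with the length trend removed, and 30 factors and 2344 genes by edgeR; both settings were chosen after seeing the data. DESeq2 with all libraries called 2 genes, none of them a translation factor. The cause was not tested. The 8mer gave 3 factors with a site and the 6mer 18. The median over the factors stayed negative under every alternative run, at -0.58 to -0.13. Of the 32 factors given by library, 27 kept one sign under every setting; with 1 library left out, EEF2 ranged over -0.49 to 0.037, EIF3A over -0.25 to 0.087, EIF3J over -0.071 to 0.34, EIF4EBP2 over -0.41 to 0.0079 and EIF5AL1 over -0.34 to 0.11. Deviations of same-lettered libraries from their group means had correlations of 0.140, 0.107 and 0.0857, and those of different letters -0.083 to -0.041. Each library thus correlated best with its own letter, and whether the letters mark pairs stays unsettled. With the letter as a replicate block, 0 factors and 0 genes were called. EIF3C, EIF4A1, EIF5AL1, EIF2S3L, EEF1A2 and EEF1E1 rest on under 100 normalised read counts per library.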
